A study of Mus musculus with 9 samples.

Results

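Thyroid hormone is made on thyroglobulin (Tg), a protein that thyrocytes secrete into the follicle lumen, where iodide is coupled to its tyrosines. This step needs hydrogen peroxide, which the dual oxidases Duox2 and Duox1 produce from NADPH at the apical membrane. The maturation factors Duoxa2 and Duoxa1 carry the oxidases out of the endoplasmic reticulum to the cell surface. Iodotyrosine deiodinase (Iyd) acts at the other end of the process and recovers iodide from iodotyrosines released when Tg is degraded.

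These 5 genes, chosen by symbol among the 52636 genes of the count table, are described here across the cells of the mouse thyroid and after blockade of Notch signalling. The data were counts of unique molecular identifiers (UMIs) from 10186 single cells in 9 samples, each the pooled thyroids of 6 male C57BL/6 mice collected at 7 days after a single intraperitoneal injection. The series' design text gives an age of 10 to 12 weeks and the treatment protocol 10 to 14 weeks. Mice of the 3 control pools (RW) received an anti-ragweed antibody at 40 mg/kg, those of 3 pools (aJ1aJ2) received anti-Jag1 and anti-Jag2 at 20 mg/kg each, and those of 3 pools (aN1aN2) received anti-Notch1 at 5 mg/kg with anti-Notch2 at 10 mg/kg. Antibody given this way reaches all tissues, and a pool does not tell its mice apart.

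The authors gave each cell 1 of 16 labels. Th1, with 1169 cells, was the thyrocyte label: Tg was detected in 100% of its cells and the epithelial gene Epcam in 95.5%. Samples held 3013324 to 11880793 UMIs in all. The median Th1 cell held 9968 to 22558 UMIs in the RW and aJ1aJ2 pools and 5737 to 7558 in the aN1aN2 pools. The titles carry internal sample numbers in 3 ranges, and 1 range holds all aN1aN2 pools and no other, so receptor blockade and that range cannot be told apart.

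Duox2, Duoxa2, Duoxa1 and Duox1 lie side by side on chromosome 2 within 68726 bases (GRCm38). Duox2 (ENSMUSG00000068452, minus strand, 122279247 to 122298449) and Duoxa2 (ENSMUSG00000027225, plus strand, 122298900 to 122302885) are divergent neighbours whose RefSeq start sites are 673 bases apart. Duoxa1 (ENSMUSG00000027224, minus strand, 122302191 to 122313730) and Duox1 (ENSMUSG00000033268, plus strand, 122315672 to 122347972) form the other divergent pair, with start sites 1942 bases apart. Duoxa1 and Duoxa2 overlap on opposite strands over 695 bases at their 3′ ends. Whether strand was used in counting is not given in the sources used here, so UMIs of this pair are uncertain where they meet. Iyd (ENSMUSG00000019762) lies apart on chromosome 10, plus strand, 3540240 to 3554877.

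The promoter windows of the 3 members with enough UMIs to be tested are shown because Duox2 and Duoxa2, the divergent pair, were detected together in a cell label other than Th1. Each runs from 250 bases before to 50 bases after the RefSeq start site, 5′ to 3′ on the strand of the gene (RefSeq, GRCm38.p6; Duox2 chr2:122298178-122298477, minus; Duoxa2 chr2:122298650-122298949, plus; Iyd chr10:3540024-3540323, plus). Capitals mark exact matches on either strand to TATAAA (the TATA box), CAAGTG (a core of Nkx2 homeodomain sites) and GTGGGAA (a core bound by RBPJ, the DNA-binding partner of Notch receptors).
Duox2: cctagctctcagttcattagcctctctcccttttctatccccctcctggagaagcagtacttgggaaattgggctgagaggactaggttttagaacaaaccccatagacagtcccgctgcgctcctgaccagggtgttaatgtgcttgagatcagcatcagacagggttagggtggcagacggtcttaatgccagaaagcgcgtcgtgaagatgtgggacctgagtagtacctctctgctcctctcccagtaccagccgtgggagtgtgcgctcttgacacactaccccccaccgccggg
Duoxa2: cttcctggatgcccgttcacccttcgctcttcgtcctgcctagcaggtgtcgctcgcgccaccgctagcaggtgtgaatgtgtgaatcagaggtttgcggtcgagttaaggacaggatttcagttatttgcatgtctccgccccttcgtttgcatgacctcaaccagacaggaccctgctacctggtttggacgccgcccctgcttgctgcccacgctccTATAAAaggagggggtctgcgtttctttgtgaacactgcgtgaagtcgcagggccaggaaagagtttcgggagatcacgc
Iyd: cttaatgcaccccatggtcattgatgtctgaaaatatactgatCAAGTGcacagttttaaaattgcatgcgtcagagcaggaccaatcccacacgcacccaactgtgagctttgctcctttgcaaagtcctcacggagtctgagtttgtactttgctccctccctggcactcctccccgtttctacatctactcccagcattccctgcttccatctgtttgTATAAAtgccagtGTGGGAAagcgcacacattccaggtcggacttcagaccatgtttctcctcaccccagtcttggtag
TATAAA began 30 bases before the start site of Duoxa2 and 29 bases before that of Iyd, and 13.6% of all 32851 RefSeq promoter windows of this length hold it. The Iyd window also held CAAGTG (in 13.6% of windows) and GTGGGAA (in 6.38%). None of the 3 motifs was in the window of Duox2. A match describes the letters only.

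Across all labels the 5 members differed widely in how often they were captured. Iyd had 25426 UMIs, Duoxa2 1490, Duox2 707, Duoxa1 59 and Duox1 40. Th1 held 94.3% of the Iyd UMIs, 90.8% of those of Duoxa2, 77.4% of Duox2, 72.9% of Duoxa1 and 82.5% of Duox1. The 3′ counts are not divided by gene length, so levels are compared between labels and samples and not between genes.

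Iyd was highest in Th1, at 1023 CPM (UMIs of the gene scaled to a common total of the UMIs of the label, with a 95% counting interval of 1010 to 1036), followed by Th3 at 724 and Th2 at 228. These 2 labels are shallow, with medians of 987 and 1014 UMIs per cell. The other 13 labels held between 1.86 CPM in Eryth2 and 22.8 in EC4. Thyrocyte RNA that floats free in the suspension can enter droplets and would then keep its genes in about 1 ratio. The UMIs of each label were therefore set against the number its Tg UMIs predict from Th1 of the same samples. For Iyd this ratio was between 0.569 and 1.52 in the 13 labels, and its counting interval covered 1 in 12 of them; the exception was EC3, at 0.692 (0.467 to 0.988). An Iyd UMI was found in 94.1% of Th1 cells (median 12553 UMIs) and in 1.28% of the erythroid label Eryth2 (median 7944.5 UMIs). Some intervals of the ratio were wide, such as 0.413 to 3.88 in P. The source of the Iyd UMIs outside the 3 Th labels was not tested.

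Duox2 had a different order of labels. It was highest in EC3, at 47.9 CPM (40.2 to 56.6), then came Th1 at 23.3 (21.4 to 25.4), Th2 at 17.1 (3.52 to 49.9) and Th3 at 9.24 (5.05 to 15.5). Of the other 12 labels, those with a Duox2 UMI were below 1 CPM, and 6 had none, where 3 counts would amount to 0.301 CPM in EC1 and up to 4.56 in S. EC3 is one of the authors' EC labels, and the endothelial gene Pecam1 was detected in most of its cells. It held 365 cells and 136 of the 707 Duox2 UMIs, where its Tg UMIs predicted 0.873, a ratio of 156 (131 to 184). Another endothelial label, EC1, had no Duox2 UMI in 1603 cells, which allows a share of up to 0.187% of cells with a UMI.

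By sample, EC3 held 43 Duox2 UMIs in RW 1, 17 in RW 2 and 10 in RW 3. It held 29 in aJ1aJ2 1, 9 in aJ1aJ2 3 and 12 in aJ1aJ2 4. It held 5 in aN1aN2 1, 0 in aN1aN2 2 and 11 in aN1aN2 3. Duox2 was thus seen in EC3 in 8 of the 9 pools. The level was 48.2 ± 36.5 CPM in EC3 and 22.4 ± 5.81 in Th1 of the same pools (SD, n = 9 each). Within pools it was higher in EC3 in 8 of 9, from 20.7 against 20.2 CPM in aJ1aJ2 3 to 117 against 35.3 in aJ1aJ2 1, which has only 17 EC3 cells. EC3 was singled out with its level known, so this is given with no test. A pair of deep EC3 cells, in RW 1 and aJ1aJ2 1 (54575 and 73617 UMIs), held 27 and 19 of the UMIs, and without them EC3 stood at 33.2 CPM.

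Duoxa2, the partner that Duox2 needs to reach the surface, was also present in EC3. It was at 57.7 CPM in Th1, 51.2 in Th2, 32.4 in Th3 and 18.7 (14.0 to 24.4) in EC3. The other labels with a UMI were at most at 2.36, and 4 had none, where 3 counts would amount to 1.29 to 4.56 CPM. Its 53 UMIs in EC3 were 20.2 times (15.2 to 26.5) the number predicted from Tg. EC1 and F also exceeded the prediction, at 2.03 times (1.05 to 3.54) from 12 UMIs and 4.31 times (1.17 to 11.02) from 4 UMIs. The ratio of Duox2 to Duoxa2 UMIs, compared between labels only, was 2.57 in EC3 and 0.404 in Th1, where single samples ranged from 0.278 to 0.537.

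**Figure D1:**
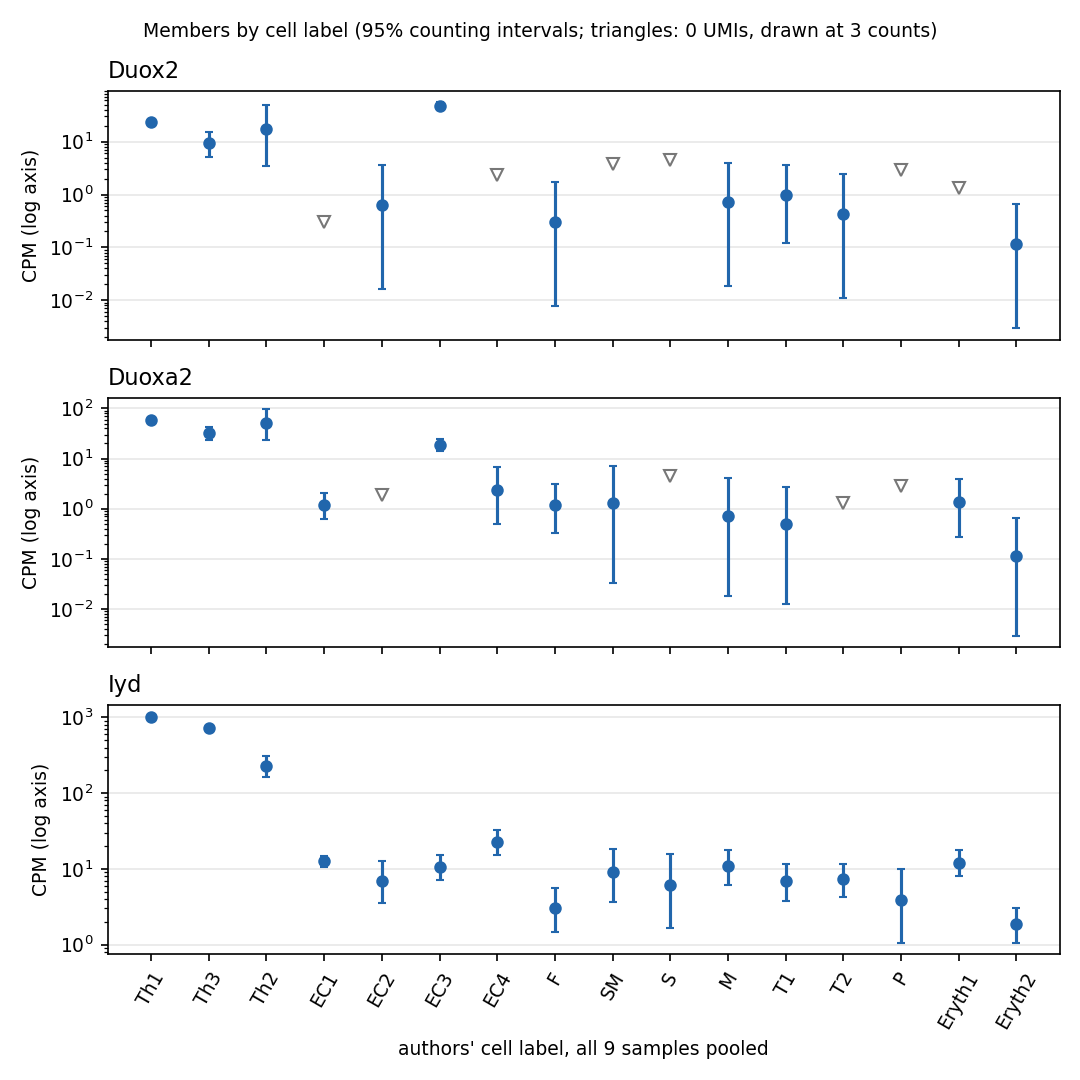
Level of Duox2, Duoxa2 and Iyd in CPM (log axis) in each of the 16 labels, with all 9 samples pooled; bars are 95% counting intervals and triangles mark labels with 0 UMIs, drawn at the level of 3 counts. Iyd falls off outside Th1, Th3 and Th2, whereas Duox2 stands at 47.9 CPM in EC3 and 23.3 in Th1.

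The Duox2 UMIs of EC3 sat in a small set of its cells. Of the 43 EC3 cells with a Duox2 UMI, 95.3% had a UMI of Mmrn1, 90.7% of Flt4 and 83.7% of Prox1, genes of lymphatic endothelium (Prox1 encodes the transcription factor that specifies it). Of the 322 EC3 cells without Duox2, 13.7%, 28.3% and 10.2% had them. Vwf, a gene of blood endothelium that is high in veins, went the other way, in 6.98% of the cells with Duox2 and 40.7% of those without. Cells with Duox2 had a median of 5909 UMIs and those without 4558.

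To describe this without choosing cells by Duox2, EC3 cells were split by how many of 5 lymphatic genes (Prox1, Lyve1, Pdpn, Ccl21a, Mmrn1) they held. The 5 genes were picked after the EC3 level had been seen, so the split is a description with no test. It gave 82 cells with 2 or more of the genes and 283 others. Duox2 was detected in 41 of the 82 cells (50.0%, exact binomial interval 38.7% to 61.3%) and in 2 of the 283 others. The 82 cells held 134 of the 136 Duox2 UMIs, a level of 157 CPM (132 to 186), and the others 1.01 CPM. For Duoxa2 they held 50 of the 53 UMIs, or 58.8 CPM (43.6 to 77.5).

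The same 82 cells looked endothelial by Pecam1 (86.6% of cells) and Cdh5 (76.8%), and Ptprc, the leukocyte marker, was at 0. Thyrocyte genes were low in them, with Iyd at 2.35 CPM and Tg at 308. In the other EC3 cells Iyd was at 14.1 CPM and Tg at 1559. A single cell of RW 3 with none of the lymphatic genes held 2241 Tg UMIs, 20 of the 30 Iyd UMIs of EC3 and 1 Duox2 UMI, and without it those levels were 4.10 and 442 CPM. Epcam was detected in 2 of the 82 cells, at 109 CPM over all of them. Duox1 was at 0, and Duoxa1 had 4 UMIs in 2 cells, all 4 of the Duoxa1 UMIs of EC3.

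Shares of cells were also compared at equal depth. With every cell thinned to 2000 UMIs, Duox2 was found in 26.8% of 71 lymphatic-marker cells (16.9% to 38.6%), in 5.25% of 1142 Th1 cells (4.03% to 6.71%) and in 0 of 234 other EC3 cells, which allows up to 1.28%. Thinning left out 11, 27 and 49 cells. Duoxa2 was at 4.23% (0.880% to 11.9%) in the 71 cells, at 1.28% (0.265% to 3.70%) in the 234 others and at 12.2% (10.3% to 14.2%) in Th1, so at this depth the intervals of both sets of EC3 cells overlap for Duoxa2. Unthinned, a Duox2 UMI was found in 29.4% of Th1 cells and in 0.0916% of Eryth2 cells.

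Pool by pool, Duox2 was detected in 7 of 13 such cells of RW 1, 5 of 9 of RW 2 and 6 of 10 of RW 3. It was detected in 3 of 7 in aJ1aJ2 1, 6 of 15 in aJ1aJ2 3 and 8 of 16 in aJ1aJ2 4, and in 3 of 7, 0 of 1 and 3 of 4 in aN1aN2 1, 2 and 3. The RW pools (53.8% to 60%) all lay above the aJ1aJ2 pools (40.0% to 50.0%), and the aN1aN2 pools (0% to 75.0%) spanned both. With 1 to 16 such cells in a pool, and the cells chosen after the EC3 level had been seen, the difference was not tested. Summed over a group, the level was 156 CPM (121 to 197) in RW, 137 (102 to 180) in aJ1aJ2 and 331 (189 to 538) in aN1aN2, where it rests on 16 UMIs in 12 cells. RW 1 held 42 of the 68 Duox2 UMIs of RW. By pool the level was 302, 72.8 and 139 CPM in RW 1, 2 and 3, and 151, 103 and 140 in aJ1aJ2 1, 3 and 4. In aN1aN2 1, 2 and 3 it was 315, 0 and 369 CPM, so the pools of the 3 groups overlapped. The intervals cover counting error only. Without the pair of deepest Duox2 cells the level over all pools was 122 CPM, and leaving out 1 pool at a time gave 129 to 190 CPM (without RW 1 and without RW 2).

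**Figure D2:**
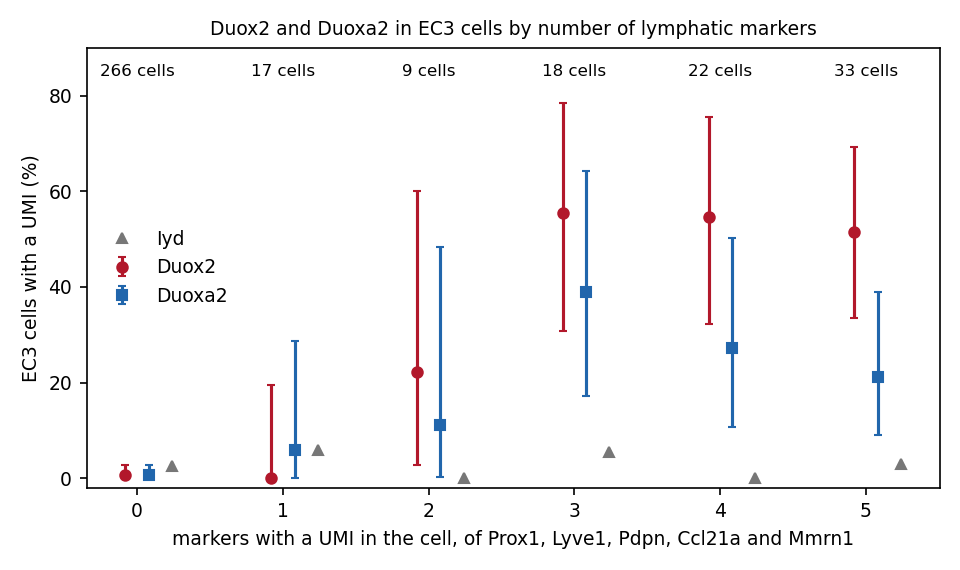
Share of EC3 cells with a UMI of Duox2, Duoxa2 or Iyd by the number of 5 lymphatic genes detected in the cell; bars are exact 95% binomial intervals (Iyd is drawn without bars) and the number of cells is printed above. Duox2 was found in 2 of 266 cells with none of the genes and in 17 of 33 cells with all 5, and Iyd in 7 of 266 and 1 of 33.

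Duox1 and Duoxa1, the second oxidase and its partner, were near the limit of detection. Duox1 stood at 1.41 CPM in Th1 (0.969 to 1.98) from 33 UMIs in 25 cells, and Duoxa1 at 1.83 (1.33 to 2.47) from 43 UMIs in 38 cells. Per pool Duox1 had 0 to 10 UMIs in Th1 and Duoxa1 1 to 12, and the groups overlapped for both. Of 13 labels other than the Th labels, Duox1 was at 0 in 12. The exception was F, a label in which 537 of 538 cells held the fibroblast gene Dcn: it had 5 Duox1 UMIs in 4 cells and 6 Duoxa1 UMIs in 5 cells. These are 213 (69.1 to 496) and 151 (55.3 to 328) times the numbers predicted from Tg. All 7 of these cells held Dcn and Col3a1, and 1 held Epcam.

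Notch blockade was compared in Th1 on counts summed per pool, with the quasi-likelihood test of edgeR over 10627 genes and Benjamini-Hochberg adjustment over all of them. A gene was called at an adjusted p under 0.05. Iyd, Duoxa2 and Duox2 passed the filter on low counts, and Duox1 and Duoxa1 did not. Both blockades were set against the same 3 RW pools. Levels below are CPM scaled to the normalized total of each pool, and changes are log2.

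Iyd was the member that changed most. It was at 1312, 1163 and 1221 CPM in RW 1, 2 and 3, at 1201, 953 and 1041 in aJ1aJ2 1, 3 and 4, and at 452, 457 and 475 in aN1aN2 1, 2 and 3. The aN1aN2 pools lay below all 6 others and close together, and the aJ1aJ2 pools overlapped the RW pools. The means were 1232 ± 75.0 CPM in RW, 1065 ± 125 in aJ1aJ2 and 461 ± 12.2 in aN1aN2 (SD, n = 3 each). Against RW, Iyd fell by 1.42 (SE 0.11) under receptor blockade, a 2.67-fold lower level, with an adjusted p of 1.54e-07 in edgeR. Against aJ1aJ2 it fell by 1.21 (SE 0.11, edgeR adjusted p = 1.77e-06).

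Duoxa2 stood at 51.7, 72.9 and 77.6 CPM in RW 1, 2 and 3, at 83.9, 50.3 and 40.8 in aJ1aJ2 1, 3 and 4, and at 41.2, 38.8 and 39.9 in the aN1aN2 pools. The aN1aN2 pools were below all RW pools, and aJ1aJ2 4 lay among them while aJ1aJ2 1 was the highest of all 9. Against RW it fell by 0.74 (SE 0.23, edgeR adjusted p = 0.0229) under receptor blockade. This call was lost in 8 of 15 other settings, with the adjusted p between 0.0524 and 0.499. In 7 of these the value stayed between -0.77 and -0.58, among them leaving out any of RW 2, RW 3, aN1aN2 1, aN1aN2 2 and aN1aN2 3. Thinning every cell to 2000 UMIs gave -0.31. Against aJ1aJ2 the value was -0.53 (SE 0.24, edgeR adjusted p = 0.133), and thinning turned it to 0.16.

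Duox2 was at 27.7, 20.2 and 23.8 CPM in the RW pools, at 37.1, 20.0 and 18.7 in aJ1aJ2 1, 3 and 4, and at 19.2, 20.6 and 16.9 in the aN1aN2 pools. The 3 groups overlapped, and aJ1aJ2 1 stood above the rest. The value for aN1aN2 against RW was -0.35 (SE 0.25, 95% interval -0.89 to 0.19, edgeR adjusted p = 0.310) and against aJ1aJ2 it was -0.36 (SE 0.26, edgeR adjusted p = 0.364). A change of the size seen for Iyd lies outside the first interval.

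Under receptor blockade 2 of the 3 tested members were thus called against RW, both lower, beside 34.4% of all genes tested and 17.3% called lower. Against aJ1aJ2 the count was 1 of 3, beside 22.3% of all genes and 11.5% called lower. Against these backgrounds the counts are no result about the members as a set. Iyd ranked 56 of 10627 genes by p. Depth was lowest in the aN1aN2 pools. With every cell thinned to 2000 UMIs the Iyd value was -1.32 (edgeR adjusted p = 1.71e-09), close to the unthinned one, whereas Duoxa2 was at -0.31 (SE 0.31, edgeR adjusted p = 0.499) and lost its call.

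Under ligand blockade no member was called (0 of 3, beside 0.612% of all genes). That share rests on single pools: the 65 of 10627 genes called became 1 of 10785 without aJ1aJ2 3, 17 of 10996 without aJ1aJ2 4 and 530 of 10810 without aJ1aJ2 1. Without RW 1, RW 2 or RW 3 it was 27, 18 or 104 genes. No member was among the genes called in any of these fits. At an unadjusted p under 0.05 edgeR gave 0 of 3, beside 12.3% of all genes. DESeq2 called 0 of the 3 members to which it gave an adjusted p, beside 1.26% of genes, and at an unadjusted p under 0.05 it gave 1 of 5, beside 3.54%. The values were -0.21 for Iyd (SE 0.10, interval -0.43 to 0.01, edgeR adjusted p = 0.419), -0.21 for Duoxa2 (SE 0.21, interval -0.66 to 0.24, 0.740) and 0.01 for Duox2 (SE 0.22, interval -0.47 to 0.49, 0.999). The pool aJ1aJ2 1 decided the last of these: without it Duox2 was at -0.33 (edgeR adjusted p = 0.318) and Duoxa2 at -0.52 (0.0855). Among RW 1, RW 2, aJ1aJ2 3 and aJ1aJ2 4, which share a range of sample numbers, Iyd was at -0.31 (edgeR adjusted p = 0.0551), Duoxa2 at -0.35 (0.272) and Duox2 at -0.37 (0.344), with 649 of 11395 genes called.

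**Figure D3:**
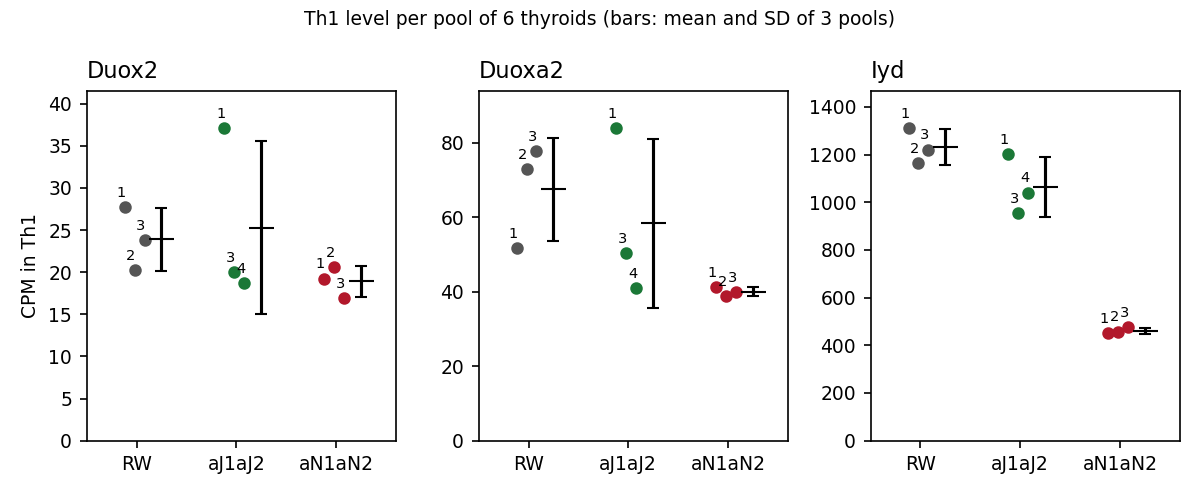
Level of Duox2, Duoxa2 and Iyd in Th1 (CPM) in each pool, numbered by replicate, with the mean and SD of the 3 pools of each group. Iyd lies at 452 to 475 CPM in the aN1aN2 pools and at 953 to 1312 in the other 6, while for Duox2 the groups overlap.

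**Figure D4:**
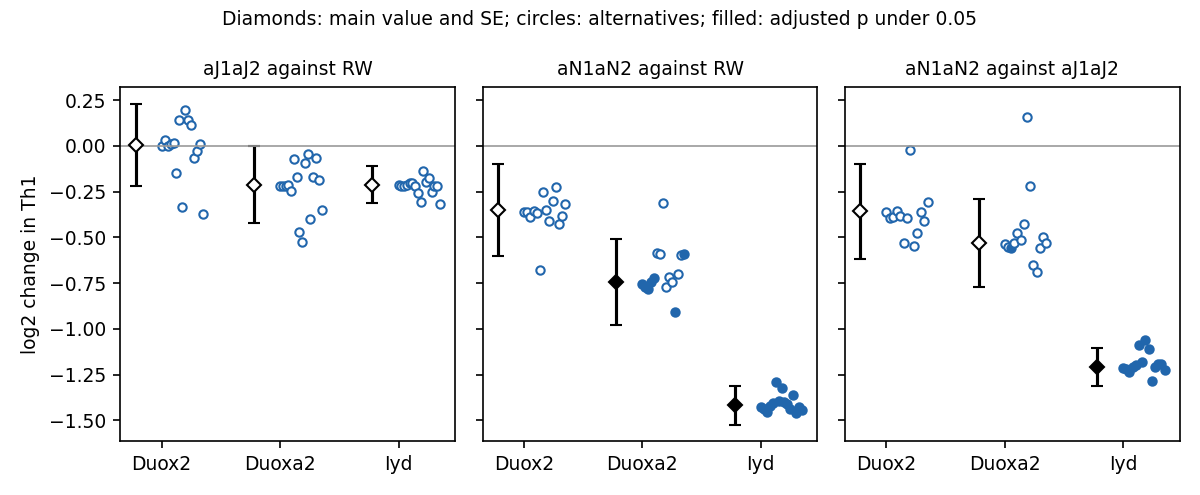
Log2 change of the 3 tested members in Th1 in each comparison, as the main value with its SE (diamond) and under each other setting (circles, filled where the adjusted p was under 0.05). The Iyd circles are filled in both comparisons of aN1aN2 and open in that of aJ1aJ2 with RW, and the Duoxa2 circles for aN1aN2 against RW are filled in 7 of 15 settings.

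The share of Th1 cells with an Iyd UMI was also lower in the aN1aN2 pools. Such a share falls with an even loss and with a loss in some cells only. It therefore cannot show how the lower level was spread over cells. With Th1 cells thinned to 2000 UMIs, an Iyd UMI was found in 85.7% to 87.8% of cells in the RW pools, 80.0% to 84.4% in the aJ1aJ2 pools and 50.0% to 61.7% in the aN1aN2 pools. At this depth the 3 groups did not overlap. The mean difference of aN1aN2 from RW was -30.9 percentage points (exact two-sided permutation p = 0.1, the smallest that 3 against 3 pools allow), and that of aJ1aJ2 from RW was -3.77 (p = 0.1 by the same exact permutation test). Thinned to 1000 or 4000 UMIs, or unthinned, the aN1aN2 pools again lay below all others, whereas the RW and aJ1aJ2 pools overlapped or met (exact permutation p = 0.2, 0.4 and 0.2). Unthinned, the shares averaged 99.6% in RW and 80.9% in aN1aN2. Thinned shares of Duoxa2 averaged 13.6%, 11.2% and 11.04% in RW, aJ1aJ2 and aN1aN2, and those of Duox2 4.13%, 8.52% and 3.74%. The pools overlapped except those of aN1aN2 and aJ1aJ2 for Duox2, a difference of -4.78 points that became 0.32 at 1000 UMIs and 0.29 at 4000. The aJ1aJ2 mean of Duox2 rests on aJ1aJ2 1, at 15.6%, and was 5.00% without it. Thinning left out 1 RW, 1 aJ1aJ2 and 25 aN1aN2 cells.

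Within thinned Th1 cells, Duox2 and Duoxa2 were found together in 6 cells, where the product of their shares in each pool gives 7.60 (ratio 0.789, 0.290 to 1.72). Duoxa2 and Iyd were found together in 116 cells, against 109 (ratio 1.07, 0.883 to 1.28). Both intervals cover 1. In EC3, unthinned, 18 of the 43 cells with Duox2 held Duoxa2 (41.9%), and 6 of the 322 shallower cells without it did (1.86%).

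The authors deposited weights of 7 topics for 2142 cells, among them all 1169 of Th1, with no description of the topics. Each cell is named here by its topic of highest weight, and since how the topics were fitted is not given in the sources used here, and they may rest on these same counts, the values are a description. Topic 1 led in 154, 65 and 147 cells of RW 1, 2 and 3, and topic 2 in none. Topic 2 led in 131, 100 and 48 cells of aN1aN2 1, 2 and 3. In aJ1aJ2 1, 3 and 4, topic 1 led in 71, 116 and 70 cells and topic 2 in 0, 30 and 10. In the 40 aJ1aJ2 cells of topic 2, Iyd was at 549 CPM (509 to 591), against 1162 (1133 to 1191) in the 257 of topic 1. Topic 2 cells of aN1aN2 were at 443 CPM (422 to 465) and topic 1 cells of RW at 1276 (1254 to 1298). Topic 3 led in cells of all 3 groups, and within it Iyd was at 1326 CPM (1200 to 1461) in 23 RW cells, 1048 (951 to 1151) in 37 aJ1aJ2 cells and 620.0 (543 to 705) in 58 aN1aN2 cells. So within that topic too the aN1aN2 level was the lowest. Topics also differed within a group: in RW, Iyd was at 624 CPM (505 to 762) in the 21 cells of topic 4 and 749.9 (686 to 818) in the 15 of topic 5. In aJ1aJ2 it was at 778 CPM (672 to 896) in the 46 cells of topic 4 and 960.4 (873 to 1054) in the 15 of topic 5. These intervals cover counting error only.

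**Figure D5:**
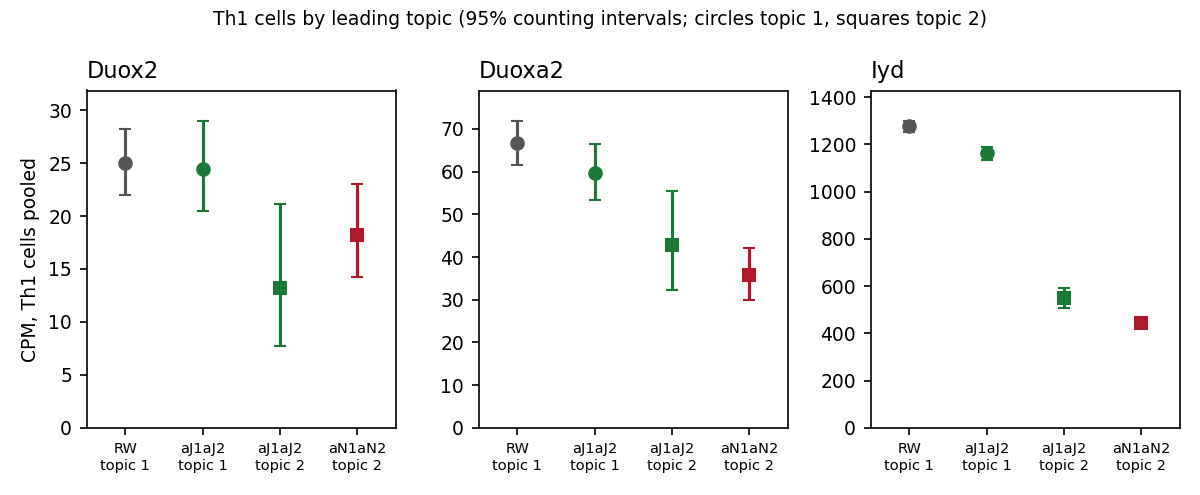
Level of Duox2, Duoxa2 and Iyd (CPM, cells pooled within a group) in Th1 cells led by topic 1 or topic 2, with 95% counting intervals. Iyd in the aJ1aJ2 cells of topic 2 stands at 549 CPM, nearer to the 443 CPM of the aN1aN2 cells of that topic than to the 1162 CPM of the aJ1aJ2 cells of topic 1.

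Outside Th1, Iyd could be tested in Th3 and EC1 and Duox2 in EC3. None of these 3 tests called a member for aJ1aJ2 or for aN1aN2. In the rest of the 11 labels that entered for aJ1aJ2 and the 8 for aN1aN2, no member passed the filter. At an unadjusted p under 0.05 edgeR gave 0 of 3 tests for aJ1aJ2 and 1 of 3 for aN1aN2. At that threshold it gave 12.6% of all genes in EC1, 7.54% in EC3 and 3.55% in Th3 for aJ1aJ2, and 29.8%, 19.3% and 22.4% for aN1aN2. In Th3, Iyd was at 913, 639.8 and 941 CPM in RW 1, 2 and 3, at 497, 964 and 943 in aJ1aJ2 1, 3 and 4, and at 485, 86.2 and 525 in aN1aN2 1, 2 and 3. The aN1aN2 pools were low here too, and aJ1aJ2 1 lay between them. The value for aN1aN2 was -1.16 (SE 0.49, edgeR adjusted p = 0.195, with 5.03% of genes called) and for aJ1aJ2 0.00 (SE 0.47, edgeR adjusted p = 0.998, with 0% called). In EC3, Duox2 was at -0.37 for aN1aN2 (SE 0.67, edgeR adjusted p = 0.825, with 5.91% called) and -0.65 for aJ1aJ2 (SE 0.64, edgeR adjusted p = 0.888, with 0.0618% called). The make-up of EC3 moved with this comparison: it held 32 lymphatic-marker cells and 102 others in RW, 38 and 101 in aJ1aJ2, and 12 and 80 in aN1aN2. Within the lymphatic-marker cells the summed Duox2 level was 331 CPM in aN1aN2 and 156 in RW, but the single pools overlapped, as given above. The share of these cells with a Duox2 UMI was 50.0% in aN1aN2 and 56.25% in RW. The part of the make-up in the result was not tested. Iyd in EC1, at the level its Tg predicts, was at -0.57 and -0.42 (edgeR adjusted p = 0.491 and 0.690, with 17.8% and 1.43% called).

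Other genes of hormone synthesis moved unevenly in Th1. Of 15 tested genes of iodide handling and hormone synthesis, 7 fell and 2 rose under receptor blockade, with a median of -0.49 beside 0.02 over all genes. With any 1 pool left out 7 or 8 fell, and the 2 rises became 0 or 1. In that comparison 34.4% of all tested genes were called and 17.3% fell, the background for each list that follows. Slc5a5, the iodide transporter that loads the thyrocyte, fell by 3.96 (SE 0.36, edgeR adjusted p = 9.95e-07). Dio1, a deiodinase of thyroid hormone, fell by 1.61, and Tshr, the receptor of thyrotropin, by 1.47. Tg was at 0.19 (SE 0.13, edgeR adjusted p = 0.305), so Iyd and Duoxa2 were lower beside a Tg level that did not pass the test. Under ligand blockade only Tshr among the 15 was called, beside 0.612% of all genes, and it fell by 0.93 (edgeR adjusted p = 0.0235). That call held without aJ1aJ2 1 and without RW 3, and it was lost without aJ1aJ2 3, aJ1aJ2 4, RW 1 or RW 2, with values from -1.17 to -0.77 (edgeR adjusted p = 0.000214 to 0.180). The number of list genes that fell was 4 without aJ1aJ2 1 and 3 without RW 3. It was 0 without aJ1aJ2 3, aJ1aJ2 4, RW 1 or RW 2. With all pools in the fit, Slc5a5 was at -1.15 (edgeR adjusted p = 0.0721) and Tg at 0.04 (0.957). Against aJ1aJ2, 4 of 15 fell under receptor blockade, beside 11.5% of all genes, with Slc5a5 at -2.81, Dio1 at -1.07 and Foxe1, a thyroid transcription factor, at -0.86 the largest.

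Genes that supply or remove hydrogen peroxide were counted in the same way. Of 12 genes of other NADPH oxidases that were found, 3 were tested, and 1 of the 3 was called under receptor blockade, beside 34.4% of all genes. It was Cyba, the membrane subunit of several of these oxidases, which fell by 0.62 (edgeR adjusted p = 0.00194). The median of the 3 genes was 0.25. Of 14 tested genes of NADPH supply 5 fell and 1 rose (34.4% of all genes called, 17.3% lower), with a median of -0.42 beside 0.02 over all genes. Without aN1aN2 2 only 3 of the 14 fell. The largest falls were Taldo1 and Pgd of the pentose phosphate pathway, by 0.98 and 0.66, and G6pdx, its first enzyme, by 0.67. Of 19 tested genes of peroxide removal and peroxidases 11 fell and 4 rose, beside the same 34.4% and 17.3% of all genes, with a median of -0.50. Sod3, the extracellular superoxide dismutase, fell by 2.09, Gpx2, a glutathione peroxidase, fell by 2.01, and Selenop, a secreted selenium carrier, rose by 1.76. Under ligand blockade 1 gene of these 3 lists was called, beside 0.612% of all genes: Sod3 fell by 0.94 (edgeR adjusted p = 0.0124). Sod3 lost its call without aJ1aJ2 3 (edgeR adjusted p = 0.0819) and without RW 1 (0.0574), with values from -1.05 to -0.78 over the 6 pools left out in turn. Without aJ1aJ2 1 the calls were 4 genes of peroxide removal and peroxidases and 1 of NADPH supply, all lower.

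Chaperones of the endoplasmic reticulum, where Duox2 is folded and joined by Duoxa2, fell as a list. Under receptor blockade 11 of 11 tested genes fell, beside 17.3% of all genes, with a median of -3.02. Sdf2l1 fell by 4.86, Derl3, of the degradation machinery, by 4.32 and Calr, a lectin chaperone, by 3.24. Under ligand blockade 4 of 11 fell, beside 0.612% of all genes called, with a median of -0.65, and the largest falls were Derl3 by 1.13, Sdf2l1 by 1.00 and Pdia4, a disulfide isomerase, by 0.75. That count rests on single pools: it was 0 without aJ1aJ2 3, 1 without aJ1aJ2 4 or RW 2, 4 without RW 1 or RW 3 and 9 without aJ1aJ2 1. Sdf2l1 kept its call in 5 of 6 such fits, and without aJ1aJ2 3 it was at -0.85 (edgeR adjusted p = 0.0722). The median of the list stayed below 0 in each of them, from -0.79 to -0.56. Against aJ1aJ2, 11 of 11 fell under receptor blockade, beside 11.5% of all genes. The list was chosen with results of these data known, so its direction is not independent evidence.

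The genes whose Th1 level followed each member most closely over the 9 pools were found among 6328 genes with a mean of at least 20 CPM. Among them were, for Iyd, Tnfrsf9 (Pearson r = 0.993) and Txn1 (0.993). For Duoxa2 they were Acot13 (0.974), Gpx4 (0.969) and Clpp (0.961), and for Duox2 Hexim1 (0.920), Zdhhc4 (0.919) and Slc7a4 (0.916). The pools fall into 3 groups, and these values do not take out the differences between groups. Txn1, a thioredoxin, averaged 1139.8 CPM in RW, 977 in aJ1aJ2 and 497 in aN1aN2.

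Markers of other cells were present in the Th1 sums and some moved with the groups. The 4 parathyroid genes, all detected, summed to 10.1 to 49.5 CPM in RW, 19.5 to 72.6 in aJ1aJ2 and 126 to 289.6 in aN1aN2. The 5 C cell genes, all detected, summed to 426 to 1071, 57.0 to 2538 and 1009 to 1798 CPM. Of 4 Schwann cell genes 3 were detected and Sox10 was at 0, and their sums were 225 to 251, 159 to 208 and 91.9 to 97.6 CPM. Of the 3 B cell genes only Cd79b was detected, with Cd79a and Ms4a1 at 0, at 17.7 to 20.9, 17.5 to 24.7 and 37.0 to 55.6 CPM. The 6 endothelial genes, all detected, summed to 372 to 499 CPM in RW, 202 to 425 in aJ1aJ2 and 82.2 to 388 in aN1aN2. The 6 macrophage genes, all detected, summed to 45.9 to 109, 15.8 to 250 and 1.82 to 79.8 CPM. For both lists the RW and aN1aN2 pools overlapped. The part of these other cells in the Th1 results was not tested. Airway and oesophageal epithelium, which also express Duox genes, left Scgb1a1, Muc5b and Krt13 at 0, with 11.3 to 52.6 CPM summed over the 7 genes.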

How the data were processed

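The authors deposited raw UMI counts per gene and cell (10x 3′ libraries) with a cell annotation; Cell Ranger and the build GRCm38 are named in the submitters' processing notes, without a version. How cells were called, labelled and given topics, and whether doublets were removed, is not given in the sources used here, and no doublet caller was run. Every value was a whole number, and cells held 500 to 131347 UMIs. Symbols matched 52403 of 52636 Ensembl identifiers. In 2619 annotation lines a shifted column was corrected. Across libraries 15 barcode sequences recurred, in 30 cells.

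UMI counts of all cells of a label were added up within each sample, and the sums were tested with edgeR 4.0.16 (R 4.3.3): filterByExpr, TMM, 1 fit of all 9 samples with 3 group means, adjusted p under 0.05. DESeq2 1.42.0 was an alternative. Each SE is the log2 change divided by the root of F. A label entered a comparison if both groups had 2 or more samples with 20 or more of its cells. Shares of cells were compared after thinning, with exact permutation tests. The test was run on simulated data with known changes before use. Intervals of shares, summed levels and ratios cover counting error only, those of log2 changes rest on the SE between pools, and floors rest on 3 counts. The replicate is the pool, so p-values set a difference between groups against the spread between pools within groups. No label says how pools were assigned.

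RW 3 and aJ1aJ2 1 have no number in their titles. Numbers 1 and 2 recur in RW and aN1aN2, but deviations of same-numbered samples did not correlate (r = 0.02 and -0.01), so they were not treated as pairs. Members and gene lists were chosen with earlier results of these data known. Named list genes are the 3 called genes with the largest change in each list and comparison, with Tg and Slc5a5 always; some genes are not reported here. The 5 lymphatic genes, Flt4, Vwf and the genes of F were chosen after values were seen.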

Additional observations from a re-analysis of the deposited data

How the results depend on the processing

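The Iyd call under receptor blockade held in 15 of 15 alternatives against RW (-1.46 to -1.29) and in 14 of 14 against aJ1aJ2 (-1.28 to -1.06), and no alternative called a member under ligand blockade. The count of members called in Th1 for aN1aN2 against RW fell from 2 to 1 with an equal number of cells, without the deepest 5% of cells and with cells thinned to 2000 UMIs, and was 1 to 2 when single samples were left out, each time through Duoxa2; the cause was not tested. Against aJ1aJ2 the count rose to 2 with no filter on low counts, where Duoxa2 was at -0.56, and thinning gave it 0.16. Duox2 under ligand blockade changed sign with no filter (-0.0021), an equal number of cells (-0.15), only the samples of 1 number range (-0.37) and when single samples were left out (-0.33 to 0.20). Leaving out single samples also turned Duox2 in EC3 (-1.17 to 0.052 for aJ1aJ2, -1.40 to 0.32 for aN1aN2) and Iyd in Th3 for aJ1aJ2 (-0.15 to 0.27). The share of Th1 cells with Duox2 changed sign for aJ1aJ2 with no thinning (-1.04 percentage points) and for aN1aN2 at 1000 UMIs (1.07), 4000 UMIs (0.893) and without single samples (-1.26 to 0.0458). In lymphatic-marker EC3 cells, alternatives chosen after seeing the data gave 122 CPM of Duox2 without the 2 highest cells, 129 to 190 CPM without single samples, and 26.8% of cells when thinned. With the numbers 1 and 2 as a replicate block, aN1aN2 against RW kept 2 calls, with Duoxa2 at -0.59 (edgeR adjusted p = 0.00444). RW and aJ1aJ2 share no title number, and aJ1aJ2 and aN1aN2 share 1, so for these: No paired analysis was possible because fewer than 2 numbers are shared. With no filter, Duox1 and Duoxa1 were at -0.35 (SE 0.75) and 0.59 (SE 0.62) for aJ1aJ2 against RW and at 0.23 (SE 0.77) and -0.21 (SE 0.79) for aN1aN2, and neither was called.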
